A study of Mus musculus with 23 samples.

Results

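Macrophages and monocytes taken from around a poly(ethylene glycol) (PEG) hydrogel 28 days after implantation were compared by RNA sequencing. The libraries were chosen by their cell type and time labels alone, 3 of macrophages (A, B and C) and 3 of monocytes (A, B and C), out of 23 in the series. Both groups came from wild-type C57BL/6J mice that carried the hydrogel under the skin for 28 days, so that cell type is the labelled difference between them. Per the series' design note, both cell types were Cx3cr1-positive, the macrophages Ly6C-low and the monocytes Ly6C-high, taken below to be the gate of the sort. The remaining libraries hold the same cell types at days 2 and 14 and from mice labelled as untreated (3 per group, 2 for untreated macrophages). The design note calls the libraries biological replicates. Age, sex and the number of mice behind 1 library are not stated in the labels.

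PEG hydrogels are soft synthetic gels, and tissue answers such a material with inflammation and a collagen capsule, together called the foreign body response. Ly6C-high monocytes leave the blood for inflamed tissue, where they can lose Ly6C and become macrophages. Macrophages take up and digest particles and dead cells in lysosomes, release proteases and growth factors, and on implant surfaces can fuse into giant cells. Macrophages that live in the skin without an implant carry endocytic receptors such as Lyve1, Cd163 and the folate receptor Folr2.

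Library totals were 23074988, 28193280 and 29747906 counts for macrophages A, B and C, and 17693873, 20786916 and 19514742 for monocytes A, B and C. Levels are given as CPM, the count of a gene scaled by the library total, without the normalization factors used in the tests. Macrophage C stood apart from the other macrophage libraries. Over 16260 genes its counts had a Spearman correlation of 0.916 with macrophage A and 0.93 with macrophage B, but of 0.926 to 0.942 with the 3 monocyte libraries. Macrophages A and B correlated at 0.948 with each other and at 0.884 to 0.917 with the monocytes. The genes of the gate, Ly6c2, Ly6c1 and the fractalkine receptor Cx3cr1, chose the cells and are no finding. Ly6c2 measured 5.03, 15.1 and 60.9 CPM in macrophages A, B and C and 2184, 824 and 1033 CPM in monocytes A, B and C. Ly6c1 was at 1.91, 4.22 and 8.5 CPM in the macrophages and 136, 74.1 and 65 CPM in the monocytes. Every macrophage library lay below every monocyte library for both, with macrophage C the highest of the macrophages. Cx3cr1 overlapped between the groups, with 155, 227 and 88 CPM in the macrophages and 84.6, 186 and 102 CPM in the monocytes. The myeloid genes Ptprc (731, 728 and 774 CPM in the macrophages and 518, 821 and 880.3 CPM in the monocytes), Itgam (402, 466 and 319 CPM in the macrophages and 188, 307 and 419 CPM in the monocytes) and Cd68 (2902, 2406 and 2570.0 CPM in the macrophages and 2651, 1831 and 1451 CPM in the monocytes) were present in all 6 libraries and did not pass the test. Of 10 such myeloid identity genes, 1 was called, the endotoxin co-receptor Cd14, lower in macrophages at 4064, 3573 and 3079.7 CPM in the macrophages and 5733, 7669.9 and 7866 CPM in the monocytes (log2 fold change -0.92 ± 0.23 SE, adjusted p = 0.0377). With 1 library left out, Cd14 passed only without monocyte A. Mitochondrially encoded transcripts took 2.63%, 2.14% and 2.71% of the counts in macrophages A, B and C and 0.609%, 0.624% and 0.997% in monocytes A, B and C, and their part in the results below was not tested.

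Macrophages differed from monocytes in 409 of 16260 genes tested (2.52%). Of these, 242 were higher in macrophages (1.49%) and 167 were lower (1.03%), at a Benjamini-Hochberg adjusted p under 0.05 in edgeR's quasi-likelihood test. Protein-coding genes made up 238 of the 242 and 156 of the 167. Log2 fold changes below are macrophage minus monocyte, so that a positive value means higher in macrophages. Those given with ± carry a standard error (SE), derived from the F statistic of the test. The fit takes the spread from all 23 libraries, with n = 3 libraries per group at day 28. The median over all genes was 0. The count rested on few libraries: it was 69 without macrophage A, 128 without macrophage B, 111 without monocyte C, 213 without monocyte A, 293 without monocyte B and 1323 without macrophage C (577 higher, 3.57%, and 746 lower, 4.62%). With the 6 day 28 libraries fitted alone, without the shared spread of the other times, 1 gene passed and 1697 had an unadjusted p under 0.05. With all libraries fitted, 2963 of the 16260 genes had an unadjusted p under 0.05. Other tools called more genes in all. DESeq2 called 714 higher and 515 lower of 47729 entries, and limma voom 526 higher and 618 lower of 16260 genes. List counts given below for these tools are to be set beside those totals, not beside edgeR's 409. In the fits with 1 library left out, all 409 genes kept their direction, and 54 of them (36 higher, 18 lower) passed in each of the 6. Those 54 are called stable below. The gate genes Ly6c1 and Ly6c2, which are no finding, are among the 409 and the 54. Macrophage C had the lowest CPM of the macrophage libraries for 171 of the 242 higher genes (70.7%). It had the highest for 110 of the 167 lower ones (65.9%). By another measure, the smallest log2 distance to the monocyte mean, it was the nearest macrophage library for 43.8% of all genes tested. In these bulk libraries, fewer cells that express a gene and less RNA of it per cell cannot be told apart.

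**Figure D1:**
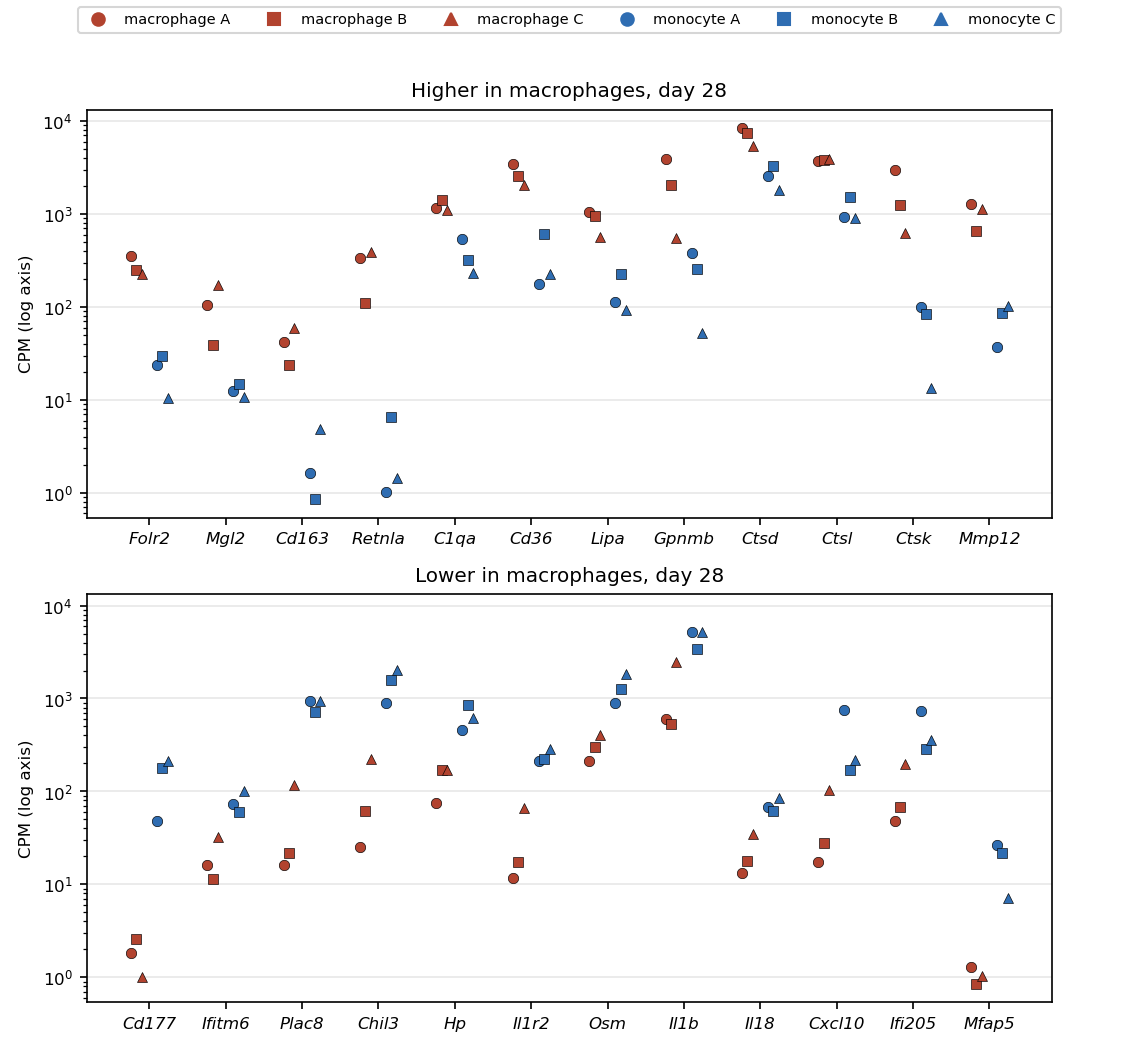
Level of 24 genes in each day 28 library, in CPM on a log axis, for 12 genes higher in macrophages (top) and 12 lower (bottom). Red symbols are macrophages and blue symbols monocytes, with circles, squares and triangles for libraries A, B and C. The groups do not overlap for any gene shown, and for Plac8, Chil3, Il1b and Cxcl10 macrophage C lies nearest to the monocytes.

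The largest rises among genes with at least 10 CPM were led by Rasgrp3, an activator of Ras-family GTPases, and Retnla, a secreted resistin-like protein of alternatively activated macrophages. Retnla measured 334, 109 and 387 CPM in macrophages A, B and C and 1.02, 6.49 and 1.43 CPM in monocytes A, B and C (log2 fold change 6.59 ± 1.05 SE, adjusted p = 0.00278). Each macrophage library was far above each monocyte library, and macrophage C held the most. Rasgrp3 was at 64, 11.5 and 1.98 CPM in the macrophages and 0.113, 0.337 and 0 CPM in the monocytes (log2 fold change 7.46 ± 1.32 SE, adjusted p = 0.00552), with macrophage C at the low end of its group. Both were stable. Mamdc2 (5.64 ± 1.28), the microsomal epoxide hydrolase Ephx1 (4.28 ± 0.91), the interleukin-27 receptor chain Il27ra (4.05 ± 0.90), Apbb2 (3.91 ± 0.94) and the inhibitory surface glycoprotein Cd200 (3.86 ± 1.02) also rose, and none of these was stable. The largest falls were of Efemp1 and Cd248, a matrix glycoprotein and a surface protein of stromal cells. Efemp1 was at 0, 0.0355 and 0.168 CPM in the macrophages and 16.4, 29 and 3.84 CPM in the monocytes (log2 fold change -7.70 ± 1.85 SE, adjusted p = 0.0334). Cd248 was at 0, 0 and 0.168 CPM in the macrophages and 5.99, 21.1 and 3.95 CPM in the monocytes (log2 fold change -7.30 ± 1.62 SE, adjusted p = 0.0235). Their macrophage libraries lay at or near 0. Lrrn4cl (-5.57 ± 1.34) and the GTPase gene Rab44 (-3.75 ± 0.98) were lower as well. Efemp1, Lrrn4cl and Rab44 each failed to pass in several fits with 1 library left out, among them those without macrophage A or B. Rab44 also failed without monocyte C, and Cd248 failed without macrophage A, macrophage B or monocyte B.

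Of 32 genes of tissue-resident macrophages, 15 were higher in macrophages and 1 was lower, and the median log2 fold change was 1.91. The risen members included endocytic and lectin receptors. Folr2, which binds folate (chr7:101839988-101857194 in GRCm38), measured 357, 252 and 225 CPM in macrophages A, B and C and 23.9, 29.4 and 10.4 CPM in monocytes A, B and C (log2 fold change 3.78 ± 0.52 SE, adjusted p = 0.000711). All 3 macrophage libraries were above all 3 monocyte libraries, with macrophage A the highest. The galactose-binding lectin Mgl2 was at 106, 39.1 and 171 CPM in the macrophages and 12.4, 14.9 and 10.9 CPM in the monocytes (log2 fold change 3.12 ± 0.46 SE, adjusted p = 0.00132), with macrophage B the lowest of its group and macrophage C the highest. Cd163, which takes up haemoglobin bound to haptoglobin, was at 41.7, 23.9 and 59.4 CPM in the macrophages and 1.64, 0.866 and 4.87 CPM in the monocytes (log2 fold change 4.17 ± 0.69 SE, adjusted p = 0.00407). Its groups did not overlap, and macrophage C was again the highest. The hyaluronan receptor Lyve1 was scarce, at 33.7, 8.41 and 17 CPM in the macrophages and 0.17, 1.25 and 0 CPM in the monocytes (log2 fold change 5.40 ± 1.03 SE, adjusted p = 0.00926). Vsig4, a complement receptor, had 210 counts in the macrophages together and 1 in the monocytes, a ratio per total count of 150.3 (exact 95% interval 26.7 to 5966, counting error only). Folr2, Mgl2, Cd163, Lyve1 and Vsig4 were stable. The lectins Cd209d (5.15 ± 1.09) and Clec10a (1.36 ± 0.31) rose too. Cd209d did not pass without macrophage A, monocyte B or monocyte C, and its reads may be shared with near-identical members of its family. Clec10a did not pass without macrophage A, macrophage C, monocyte A, monocyte B or monocyte C.

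Secreted products of this group were the complement C1q chains, which bind dead cells and immune complexes, the chemokine Pf4 and the growth factor Igf1. C1qa measured 1149, 1423 and 1094 CPM in macrophages A, B and C and 531, 316 and 229.8 CPM in monocytes A, B and C (log2 fold change 1.83 ± 0.31 SE, adjusted p = 0.00472), and was stable. All macrophage libraries lay above all monocyte libraries. C1qb (1.41 ± 0.33) and C1qc (1.56 ± 0.34) rose alongside it, and both lost the call without macrophage A, macrophage B, monocyte B or monocyte C. Pf4 was at 543, 527 and 979.6 CPM in the macrophages and 192, 142 and 203 CPM in the monocytes (log2 fold change 2.00 ± 0.49 SE, adjusted p = 0.0334). Igf1, at 293, 302 and 138 CPM in the macrophages and 60, 45.8 and 7.74 CPM in the monocytes (log2 fold change 2.75 ± 0.73 SE, adjusted p = 0.0487), passed only with all 6 libraries or without macrophage C. Cbr2 (2.31 ± 0.48), the leukotriene C4 synthase Ltc4s (2.50 ± 0.56) and the neonatal Fc receptor Fcgrt (1.34 ± 0.34) completed the higher members, and the transcriptional inhibitor Id3 was the lower one (-1.88 ± 0.42). Among the most abundant members that did not pass, the endocytic adaptor Dab2 measured 703, 714 and 488 CPM in the macrophages and 256, 564 and 538 CPM in the monocytes (adjusted p = 0.479). The mannose receptor Mrc1 measured 371, 378 and 427 CPM in the macrophages and 60.6, 119 and 225 CPM in the monocytes (1.62, adjusted p = 0.0567). Mrc1 did not overlap between the groups and Dab2 did. The number of risen members was 16 without macrophage C and 8 without macrophage A, 9 without macrophage B, 9 without monocyte A and 7 without monocyte C.

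Across 24 complement genes, 7 rose and 0 fell, with a median of 0.27. Beside the C1q chains and Vsig4 these were the terminal component C6 and the integrin chains Itgax and Itgb2, which form complement receptors. Itgb2 measured 3237, 2666 and 1637 CPM in the macrophages and 627, 1506 and 1114 CPM in the monocytes (log2 fold change 1.29 ± 0.31 SE, adjusted p = 0.0306). Its groups came close, with macrophage C little above monocyte B. Itgax was at 953, 520.4 and 76.8 CPM in the macrophages and 33.8, 73.1 and 33.2 CPM in the monocytes (log2 fold change 3.55 ± 0.71 SE, adjusted p = 0.0128), and macrophage C was far below the other macrophages. C6 had 178 counts in the macrophages and 3 in the monocytes, a ratio of 42.5 (exact 95% interval 14.3 to 208). The chemotactic receptors C3ar1 (1303, 1434 and 1512 CPM in the macrophages and 798, 785 and 794 CPM in the monocytes, adjusted p = 0.0781) and C5ar1 (1074, 1107 and 843 CPM in the macrophages and 715, 1213 and 1069 CPM in the monocytes, adjusted p = 0.906) did not pass. With 1 library left out, 2 (without macrophage A or monocyte C), 3 (without macrophage B), 4 (without monocyte A) or 5 (without monocyte B) of the 7 still passed in number, and 7 without macrophage C.

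**Figure D2:**
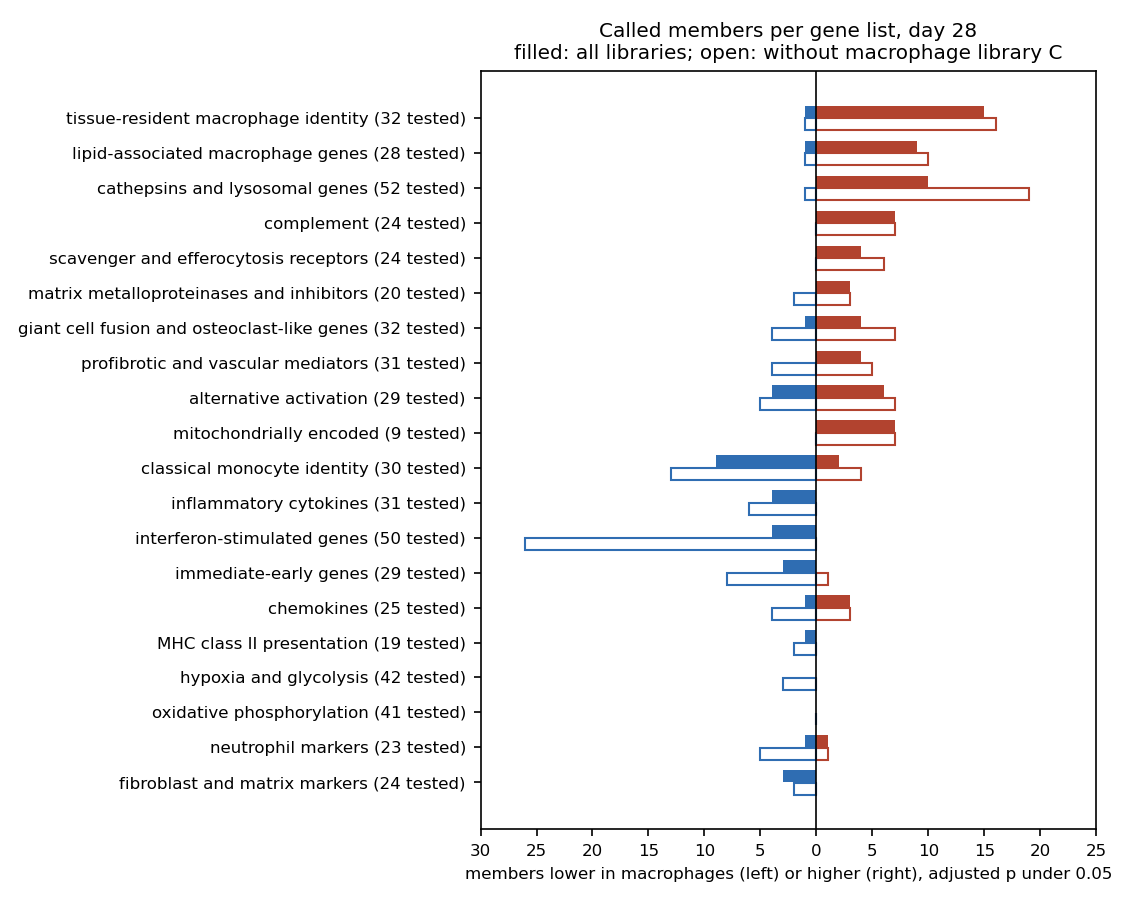
Number of members of 20 gene lists that were lower (left, blue) or higher (right, red) in macrophages at day 28 at an adjusted p under 0.05, with filled bars for all 6 libraries and open bars without macrophage C. Lower calls among interferon-stimulated genes went from 4 to 26 of 50 without macrophage C, while resident macrophage genes went from 15 to 16 of 32 higher.

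Genes of lipid-associated macrophages, which take up and store lipid at sites of damage, had 9 of 28 members higher and 1 lower (median 0.80). Cd36, a fatty acid and oxidised lipid receptor, measured 3423, 2559 and 2026 CPM in macrophages A, B and C and 175, 602 and 223 CPM in monocytes A, B and C (log2 fold change 3.06 ± 0.51 SE, adjusted p = 0.00424). Lipa, the lysosomal acid lipase that frees cholesterol and fatty acids (chr19:34492318-34527474), was at 1057, 941 and 571 CPM in the macrophages and 113, 226 and 93.6 CPM in the monocytes (log2 fold change 2.63 ± 0.35 SE, adjusted p = 0.000585). For both genes all macrophage libraries exceeded all monocyte libraries, macrophage C was the lowest of its group, and the call was stable. Lpl, the lipoprotein lipase, was at 4425, 2327 and 596 CPM in the macrophages and 262, 455 and 78.5 CPM in the monocytes (log2 fold change 3.28 ± 0.75 SE, adjusted p = 0.0238). The membrane glycoprotein Gpnmb was at 3882, 2057 and 546 CPM in the macrophages and 376, 258 and 52.7 CPM in the monocytes (log2 fold change 3.32 ± 0.82 SE, adjusted p = 0.0352). Both were several times lower in macrophage C than in macrophages A and B. The lipid-sensing receptor Trem2 was at 1063, 859 and 507 CPM in the macrophages and 356, 277 and 141 CPM in the monocytes (log2 fold change 1.72 ± 0.42 SE, adjusted p = 0.0345). Without macrophage A, Lpl, Gpnmb and Trem2 did not pass, and the same held without macrophage B and without monocyte C. The apolipoprotein gene Apoc1 was the lower member (-2.86 ± 0.60). Osteopontin, Spp1, was the most abundant member, at 81971, 50252 and 47827 CPM in the macrophages and 13454, 30864 and 11949 CPM in the monocytes, and was higher in each macrophage library than in each monocyte library without passing (log2 fold change 1.75 ± 0.57 SE, adjusted p = 0.107). Apoe overlapped, at 1607, 7528 and 10307 CPM in the macrophages and 17422, 9809 and 5581 CPM in the monocytes (adjusted p = 0.634). The number of risen members was 10 without macrophage C and fell to 4 without macrophage A or monocyte C and to 6 without macrophage B or monocyte A. Of 24 scavenger and efferocytosis genes, 4 rose and 0 fell (median 0.93): Cd36, Cd163, the bridging protein Mfge8 (2.61 ± 0.57) and the receptor Cd300lb (1.24 ± 0.33). The count was 6 without macrophage C, 2 without macrophage A or monocyte A and 3 without macrophage B or monocyte C, and with all 6 libraries DESeq2 called 9 and limma voom 8. The general scavenger genes Msr1 (log2 fold change 0.06, adjusted p = 0.934) and Lrp1 (0.81, adjusted p = 0.317) did not pass.

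Of 52 lysosomal genes, 10 rose and 0 fell, 42 had a positive log2 fold change, and the median was 0.50. Among the cathepsins, the proteases of the lysosome, Ctsd measured 8309.8, 7436 and 5371 CPM in macrophages A, B and C and 2572, 3265 and 1830.4 CPM in monocytes A, B and C (log2 fold change 1.53 ± 0.24 SE, adjusted p = 0.00284). Ctsl was at 3684, 3815 and 3869 CPM in the macrophages and 930.0, 1531 and 901 CPM in the monocytes (log2 fold change 1.82 ± 0.30 SE, adjusted p = 0.00424), nearly level across the macrophage libraries. Ctsk, a collagen-degrading cathepsin of osteoclasts, was at 2982, 1246 and 622 CPM in the macrophages and 100.2, 84.7 and 13.3 CPM in the monocytes (log2 fold change 4.69 ± 0.84 SE, adjusted p = 0.00648). Its level differed several-fold among the macrophage libraries, and the lowest, macrophage C, was still above every monocyte library. The peptidase Tpp1 was at 698, 583 and 463 CPM in the macrophages and 177, 312 and 208 CPM in the monocytes (log2 fold change 1.39 ± 0.25 SE, adjusted p = 0.00545), and these 4 genes and Lipa were stable. Ctsb, at 16184, 14680.4 and 7929 CPM in the macrophages and 6077, 6332 and 3803 CPM in the monocytes (log2 fold change 1.33 ± 0.26 SE, adjusted p = 0.0117), lost the call without macrophage A or monocyte C. The sugar hydrolases Glb1 (1.00 ± 0.27) and Gusb (1.10 ± 0.29) and the proton pump subunits Atp6v0d2 (4.77 ± 1.06) and Atp6ap2 (0.97 ± 0.24) were the other members that rose. Ctss (9789, 11033 and 10792 CPM in the macrophages and 10184, 7798 and 6573 CPM in the monocytes, adjusted p = 0.355) and Ctsz (2411, 2481 and 2172 CPM in the macrophages and 2939.6, 2272 and 2145 CPM in the monocytes, log2 fold change 0.01) overlapped between the groups. The number of risen members was 19 without macrophage C, with 1 lower, and 5 without macrophage A or monocyte C, 7 without macrophage B and 6 without monocyte A. DESeq2 and limma voom each called 17 higher with all 6 libraries.

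The promoters of Ctsd and Ctsl are shown because both genes were stable and both hold CACGTG, the letters of the site bound by the lysosomal regulators TFEB and TFE3 and by other helix-loop-helix factors. The sequences are the 250 bases before the RefSeq transcription start (GRCm38.p6), written 5′ to 3′ along the gene, with CACGTG in capitals. Ctsd lies at chr7:142387828-142388077 on the minus strand and Ctsl at chr13:64370521-64370770 on the minus strand. Whether the RefSeq start used is the main start of either gene in these cells was not tested.
Ctsd: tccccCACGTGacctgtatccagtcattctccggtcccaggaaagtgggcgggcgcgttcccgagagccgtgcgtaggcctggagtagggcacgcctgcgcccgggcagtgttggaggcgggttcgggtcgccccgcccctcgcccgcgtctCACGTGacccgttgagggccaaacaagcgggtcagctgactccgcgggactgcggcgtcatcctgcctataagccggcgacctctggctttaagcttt
Ctsl: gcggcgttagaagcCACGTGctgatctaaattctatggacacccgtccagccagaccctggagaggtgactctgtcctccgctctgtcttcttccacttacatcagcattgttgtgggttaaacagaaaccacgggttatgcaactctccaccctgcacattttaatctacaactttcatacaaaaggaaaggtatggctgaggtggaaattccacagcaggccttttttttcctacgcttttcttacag
In windows of 300 bases, from 250 before to 50 after the start, 12 of 38 promoters of lysosomal genes held CACGTG (31.6%). The share was 8.8% of 182 promoters of genes higher in macrophages, 8.9% of 112 of genes lower, 9.9% of those of genes tested and not called, and 7.2% of all 27025 promoters. The shares in called genes of either direction were thus close to that in uncalled ones.

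Among 20 matrix metalloproteinases, related sheddases and inhibitors, 3 rose and 0 fell (median 0.10). Mmp12, the macrophage elastase, measured 1265, 658 and 1128 CPM in macrophages A, B and C and 36.8, 87 and 103 CPM in monocytes A, B and C (log2 fold change 3.83 ± 0.86 SE, adjusted p = 0.023). Macrophage C was close to macrophage A here, and all macrophage libraries were well above all monocyte libraries. Mmp19 was at 513, 512 and 311 CPM in the macrophages and 72.2, 175 and 157 CPM in the monocytes (log2 fold change 1.80 ± 0.36 SE, adjusted p = 0.0128). The gelatinase Mmp9 was at 80.5, 25 and 14.7 CPM in the macrophages and 3.05, 5.87 and 4 CPM in the monocytes (log2 fold change 3.31 ± 0.86 SE, adjusted p = 0.0438). Mmp12 lost the call without macrophage A, monocyte A, monocyte B or monocyte C, Mmp19 only without macrophage A, and Mmp9 without any library other than macrophage C. The membrane-bound collagenase Mmp14 was widely spread, at 48.9, 121 and 365 CPM in the macrophages and 399, 742 and 186 CPM in the monocytes (adjusted p = 0.273, and -2.34 with adjusted p = 0.0279 without macrophage C). The count of risen members was 0 without macrophage A, 2 without macrophage B and 1 without each of the monocyte libraries, and 2 members fell without macrophage C. With all 6 libraries DESeq2 called 2 lower and limma voom 3.

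Of 32 genes of giant cell fusion and osteoclasts, 4 rose and 1 fell (median 0.16). The tetraspanin Cd81, which limits fusion of macrophages, measured 482, 246 and 109 CPM in the macrophages and 28.3, 70.6 and 27.8 CPM in the monocytes (log2 fold change 2.80 ± 0.47 SE, adjusted p = 0.00424), and was stable. Atp6v0d2, a proton pump subunit of osteoclasts, was at 875, 397 and 94.9 CPM in the macrophages and 15.7, 22.8 and 15.1 CPM in the monocytes (log2 fold change 4.77 ± 1.06 SE, adjusted p = 0.0215), with macrophage C far below macrophage A. Ctsk and Mmp9 were the other 2, and the AP-1 factor Fosl2 was lower (-1.27 ± 0.32). The tetraspanin Cd9 was abundant and did not overlap, at 4738, 3098 and 2944 CPM in the macrophages and 1172, 1518 and 1282 CPM in the monocytes, without passing (adjusted p = 0.0555, and 0.0255 without macrophage C). Risen members numbered 7 without macrophage C, 2 without macrophage A or any 1 monocyte library and 3 without macrophage B, and 4 fell without macrophage C. DESeq2 and limma voom each called 7 higher with all 6 libraries, with 1 and 3 lower.

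The list of alternative activation, the state induced by interleukin-4 and interleukin-13, split. Of 29 tested, 6 rose (Retnla, Mgl2, Clec10a, Cd163, Trem2 and the transcription factor Irf4) and 4 fell (the chitinase-like Chil3 and Chil4, the decoy receptor Il1r2 and the receptor antagonist Il1rn). Chil3 measured 25.2, 61.4 and 226 CPM in macrophages A, B and C and 884, 1598 and 2009 CPM in monocytes A, B and C (log2 fold change -3.79 ± 0.68 SE, adjusted p = 0.00648). Its paralog Chil4, whose reads may be shared with it, was at 0.607, 2.2 and 6.35 CPM in the macrophages and 28.4, 50.8 and 64.7 CPM in the monocytes (log2 fold change -3.91 ± 0.67 SE, adjusted p = 0.00472). Macrophage C was the highest macrophage library for both and still below every monocyte library, and both were stable. Arginase, Arg1, overlapped, at 2402, 2389 and 5495 CPM in the macrophages and 555, 2173 and 3636 CPM in the monocytes (adjusted p = 0.441). Counts of risen members ran from 3 (without macrophage A or monocyte B) to 7 (without macrophage C).

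The promoters of Mmp12 and Retnla are shown because both genes were at least several-fold higher in every macrophage library and both hold GAGGAAGT, letters of the site of the myeloid regulator PU.1, on the strand opposite to the gene, so that the capitals read ACTTCCTC. They are the 250 bases before the RefSeq start (GRCm38.p6), 5′ to 3′, at chr9:7344147-7344396 on the plus strand for Mmp12 and chr16:48842359-48842608 on the plus strand for Retnla.
Mmp12: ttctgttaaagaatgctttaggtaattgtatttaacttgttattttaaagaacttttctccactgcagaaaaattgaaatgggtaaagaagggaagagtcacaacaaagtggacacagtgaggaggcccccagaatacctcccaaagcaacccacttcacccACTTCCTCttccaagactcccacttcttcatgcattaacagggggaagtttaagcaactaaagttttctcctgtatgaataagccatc
Retnla: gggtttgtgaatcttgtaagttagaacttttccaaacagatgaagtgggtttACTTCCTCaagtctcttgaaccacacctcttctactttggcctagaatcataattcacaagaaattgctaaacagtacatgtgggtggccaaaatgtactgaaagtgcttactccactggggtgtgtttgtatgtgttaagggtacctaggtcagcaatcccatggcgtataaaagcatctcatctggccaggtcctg
GAGGAAGT, on either strand, was in 8.2% of 182 promoters of higher genes, 4.5% of 112 of lower genes, 3.4% of those of genes not called and 3.3% of all 27025. The shorter GAGGAA was in 37.9%, 35.7%, 27.3% and 28.3% of the same promoters.

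Growth factors and other mediators of scarring and vessel growth gave 4 higher of 31 and 0 lower (median -0.48). Nrp1, a receptor for vascular growth factors and semaphorins, measured 515, 369 and 157 CPM in macrophages A, B and C and 69, 74.6 and 41.8 CPM in monocytes A, B and C (log2 fold change 2.56 ± 0.36 SE, adjusted p = 0.000764). The macrophage libraries were all above the monocyte libraries, with macrophage C the lowest, and the call was stable. The platelet-derived growth factor Pdgfc was at 8.54, 9.54 and 11.8 CPM in the macrophages and 0.622, 1.49 and 0 CPM in the monocytes (log2 fold change 3.85 ± 0.87 SE, adjusted p = 0.026). Igf1, described above, was a further one. Of the most abundant members, Tgfbi (log2 fold change -1.20, adjusted p = 0.0566) and Fn1 (1.85, adjusted p = 0.0884) did not pass. With macrophage A, macrophage B, monocyte A or monocyte C left out, 1 member rose, and 2 without monocyte B. Without macrophage C, 5 rose and 4 fell, and with all 6 libraries DESeq2 called 3 lower and limma voom 5.

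Of 30 genes of classical monocytes, 9 fell and 2 rose (median -1.15), with the surface glycoprotein Cd177 among the fallen ones. Cd177 (chr7:24743983-24760311) measured 1.82, 2.59 and 1.01 CPM in macrophages A, B and C and 47.5, 178 and 215 CPM in monocytes A, B and C (log2 fold change -6.28 ± 0.73 SE, adjusted p = 0.000303). Plac8 was at 16.1, 21.6 and 119 CPM in the macrophages and 951, 721 and 946 CPM in the monocytes (log2 fold change -4.01 ± 0.57 SE, adjusted p = 0.000961), where macrophage C was several times above macrophages A and B. For both genes all macrophage libraries lay below all monocyte libraries. Haptoglobin, Hp, was at 74.7, 171 and 168 CPM in the macrophages and 458, 848 and 614 CPM in the monocytes (log2 fold change -2.17 ± 0.37 SE, adjusted p = 0.00472). The decoy interleukin-1 receptor Il1r2 was at 11.7, 17.6 and 67.2 CPM in the macrophages and 213, 222 and 285 CPM in the monocytes (log2 fold change -2.84 ± 0.49 SE, adjusted p = 0.00472). Cd177, Plac8, Hp, Il1r2 and Chil3 were stable. The members Ifitm6 (-1.89 ± 0.36), Trem3 (-2.07 ± 0.50) and Ly6i (-3.24 ± 0.85) were lower too, while Lyz1 (1.75 ± 0.42), whose reads may be shared with its paralog Lyz2, and the receptor Cd300ld (1.03 ± 0.22) were higher. Of the abundant members that did not pass, Thbs1 (adjusted p = 0.129) was lower in each macrophage library, and Ifitm3 (adjusted p = 0.13) and Fn1 overlapped. Fallen members numbered 13 without macrophage C, 6 without macrophage A, 7 without macrophage B or monocyte C and 8 without monocyte A or B.

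Several of these genes are also expressed by neutrophils, so neutrophil markers are given beside them. Of 23 tested, 1 fell (Mxd1) and 1 rose (Mmp9), with a median of -1.59. Their summed level was 352, 429 and 879 CPM in the macrophages and 1610.05, 1519.8 and 2220.4 CPM in the monocytes. The surface marker Ly6g was at 0, 0 and 0 CPM in the macrophages and 0.0565, 0.0481 and 0.0512 CPM in the monocytes, and the granule gene Camp at 0, 0.213 and 0 CPM in the macrophages and 0.17, 0 and 0 CPM in the monocytes. Slpi, which other cells make as well, was the most abundant member, at 151, 162 and 444 CPM in the macrophages and 940.3, 649 and 1112 CPM in the monocytes (adjusted p = 0.0789). S100a8 overlapped, at 37, 87.2 and 149 CPM in the macrophages and 125, 155 and 159 CPM in the monocytes. S100a9 did not, at 12.7, 49.2 and 90.7 CPM in the macrophages and 130, 127 and 177 CPM in the monocytes (adjusted p = 0.247). For 7 of the 23 markers every macrophage library was below every monocyte library, and for 1 above, against 10.2% and 8.57% of all genes tested. An unadjusted p under 0.05 held for 12 of the 23, and for 2963 of the 16260 genes tested. The number of fallen markers was 5 without macrophage C, 3 without monocyte A, 1 without monocyte B and 0 without macrophage A, macrophage B or monocyte C. With all 6 libraries DESeq2 called 5 lower and limma voom 4.

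Of 31 inflammatory cytokines and mediators, 4 fell and 0 rose (median -0.97). Osm, oncostatin M (chr11:4236420-4241026), measured 210.4, 298 and 404 CPM in macrophages A, B and C and 886, 1273 and 1823 CPM in monocytes A, B and C (log2 fold change -2.06 ± 0.28 SE, adjusted p = 0.00072), and was stable. Il1b was at 601, 537 and 2449.6 CPM in the macrophages and 5236, 3385 and 5188 CPM in the monocytes (log2 fold change -1.88 ± 0.45 SE, adjusted p = 0.0297). On a log scale, though not in CPM, macrophage C lay nearer to the monocytes than to macrophages A and B. Without macrophage C the log2 fold change was -2.91. Il18 was at 13.4, 17.7 and 34.7 CPM in the macrophages and 67.8, 61 and 84.5 CPM in the monocytes (log2 fold change -1.63 ± 0.31 SE, adjusted p = 0.00953), with no overlap. Il1rn, the antagonist of the interleukin-1 receptor, was at 801, 876 and 948 CPM in the macrophages and 2088, 2245 and 2108 CPM in the monocytes (log2 fold change -1.23 ± 0.33 SE, adjusted p = 0.0486). Without macrophage A or macrophage B, neither Il1b, Il18 nor Il1rn passed. Cyclooxygenase-2, Ptgs2, was at 156, 212 and 257 CPM in the macrophages and 329, 929 and 1020.4 CPM in the monocytes (adjusted p = 0.0743). The count of fallen cytokines was 6 without macrophage C, 1 without macrophage A or B, 3 without monocyte A and 2 without monocyte C. With all 6 libraries DESeq2 called 9 lower and limma voom 8.

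Of 25 chemokines, 3 rose and 1 fell. Ccl8 measured 135, 109 and 263 CPM in the macrophages and 5.76, 13.6 and 48.9 CPM in the monocytes (log2 fold change 2.98 ± 0.64 SE, adjusted p = 0.0183). Ccl9 was at 3004, 2295 and 3114 CPM in the macrophages and 1552, 1366 and 1529 CPM in the monocytes (log2 fold change 0.99 ± 0.23 SE, adjusted p = 0.0275). Both were higher in each macrophage library, and the count fell to 0 without macrophage A, monocyte A or monocyte B, with 2 left without macrophage B and 1 without monocyte C. The lower one was Cxcl10. The number of fallen chemokines was 4 without macrophage C, 2 without monocyte B and 0 without any 1 of the other libraries, and with all 6 DESeq2 called 4 lower and limma voom 3. Of 17 chemokine and colony-stimulating factor receptors, 0 passed in edgeR's test with all 6 libraries, and DESeq2 called 2 lower and limma voom 3. In edgeR 5 of the 17 had an unadjusted p under 0.05, as had 2963 of the 16260 genes tested. Ccr2, the receptor that draws monocytes into tissue, was at 499, 703 and 1522 CPM in the macrophages and 1025, 2085 and 2284 CPM in the monocytes (adjusted p = 0.215, and 0.0274 without macrophage C), and Csf1r overlapped, at 2198, 2446 and 1500.3 CPM in the macrophages and 871, 2673 and 2573 CPM in the monocytes (adjusted p = 0.96).

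Interferon-stimulated genes had a log2 fold change below 0 in all 50 tested members, with a median of -1.32, yet 4 passed and 0 rose. For 30 of the 50, every macrophage library was below every monocyte library, as it was for 10.2% of all genes tested (the reverse held for 8.57%). Isg20, an antiviral exonuclease, measured 7.71, 21.1 and 41 CPM in macrophages A, B and C and 319.8, 77.8 and 140.0 CPM in monocytes A, B and C (log2 fold change -2.89 ± 0.64 SE, adjusted p = 0.0209). Cxcl10, a chemokine for activated T cells, was at 17.2, 27.7 and 103 CPM in the macrophages and 745, 172 and 219.6 CPM in the monocytes (log2 fold change -2.89 ± 0.73 SE, adjusted p = 0.0381). The nucleic acid sensors Ifi205 (48.7, 67.9 and 199.5 CPM in the macrophages and 729.5, 283 and 357 CPM in the monocytes, log2 fold change -2.06 ± 0.52 SE, adjusted p = 0.0384) and Ifi204 (78.4, 113 and 261 CPM in the macrophages and 421, 335 and 467 CPM in the monocytes, log2 fold change -1.37 ± 0.36 SE, adjusted p = 0.0481) belong to a family of near-identical genes, between which reads may be split. Macrophage A was the lowest and macrophage C the highest of the macrophages for all 4, and monocyte A was the highest monocyte library for Isg20, Cxcl10 and Ifi205. Irf7, the factor that amplifies the response, was at 166, 340.2 and 480.3 CPM in the macrophages and 1273, 905 and 719 CPM in the monocytes and did not pass (adjusted p = 0.0911, and 0.0383 without macrophage C).

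The interferon count changed with the libraries and with the tool. Without macrophage C 26 of the 50 fell and the median was -1.93, while 0 fell without macrophage A, macrophage B or monocyte A, 4 without monocyte B and 1 without monocyte C. On all 6 libraries DESeq2 called 18 lower and limma voom 20, where over all genes they called 515 of 47729 and 618 of 16260 lower. The summed level of the 50 genes was 2961, 4027 and 7995 CPM in macrophages A, B and C and 18059, 9203 and 10617 CPM in monocytes A, B and C. Macrophage C thus lay between the other macrophages and the monocytes, and monocyte A stood above the rest. An unadjusted p under 0.05 in edgeR held for 2963 of the 16260 genes tested and for 4 of 18 dendritic cell markers. Of these 18 markers, 0 were called by edgeR, 0 by DESeq2 and 1 by limma voom. Their most abundant member, Bst2, is also on the interferon list, and measured 104, 157 and 199 CPM in the macrophages and 526, 188 and 203 CPM in the monocytes. Without Bst2 the dendritic cell markers summed to 187, 169 and 283 CPM in the macrophages and 239, 161 and 173 CPM in the monocytes, so that the groups overlapped and macrophage C was the highest library.

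**Figure D3:**
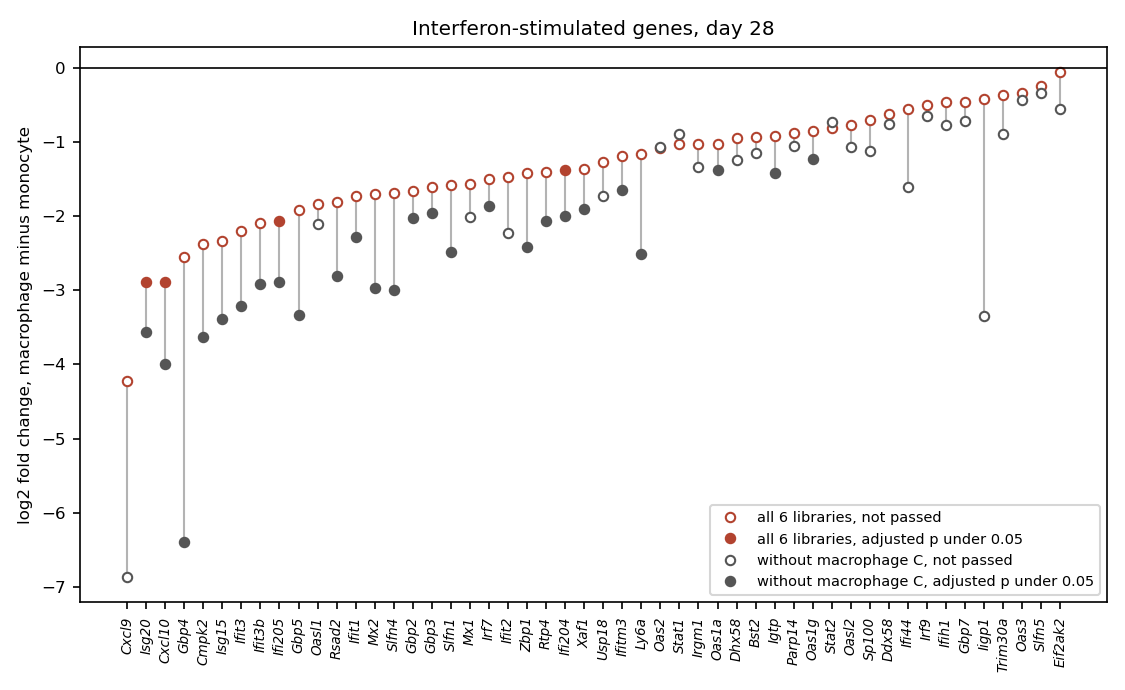
Log2 fold change (macrophage minus monocyte) of the 50 interferon-stimulated genes at day 28, with all 6 libraries (red) and without macrophage C (grey), filled where the adjusted p was under 0.05. All values lie below 0, and 4 are filled with all libraries against 26 without macrophage C.

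The promoters of Cxcl10 and Ifi205 are shown because both genes fell and both hold GAAANNGAA, letters shared by the sites of interferon regulatory factors and the interferon-stimulated response element. They are the 250 bases before the RefSeq start (GRCm38.p6), 5′ to 3′, at chr5:92348890-92349139 on the minus strand for Cxcl10 and chr1:174031756-174032005 on the minus strand for Ifi205, with the match in capitals.
Cxcl10: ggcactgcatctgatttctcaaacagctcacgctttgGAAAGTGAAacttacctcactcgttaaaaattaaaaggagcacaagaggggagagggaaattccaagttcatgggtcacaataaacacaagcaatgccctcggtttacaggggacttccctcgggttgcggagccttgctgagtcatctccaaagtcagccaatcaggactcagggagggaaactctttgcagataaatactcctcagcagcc
Ifi205: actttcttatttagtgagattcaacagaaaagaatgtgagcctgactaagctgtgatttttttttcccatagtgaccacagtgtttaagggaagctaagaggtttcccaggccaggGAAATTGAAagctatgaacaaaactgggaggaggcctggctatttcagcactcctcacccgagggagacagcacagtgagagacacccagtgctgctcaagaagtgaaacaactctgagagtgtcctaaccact
In the 300-base windows, 26 of 37 promoters of interferon-stimulated genes held GAAANNGAA on either strand (70.3%). It was in 18.8% of 112 promoters of genes lower in macrophages, 8.2% of 182 of genes higher, 7.6% of those not called and 8.6% of all 27025 promoters. Of the lower genes, 21 promoters held it.

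In all, 14 motifs were searched on both strands, chosen with the calls known, and a match says only that the letters are there. Of 16259 gene symbols tested, 11047 had a promoter in the RefSeq table. The longer E-box spellings TCACGTGA and GTCACGTG, which contain CACGTG, were in 1% and 2.3% of all promoters. The hypoxia response core ACGTG, also contained in CACGTG, was in 15.4% of promoters of higher genes, 21.4% of lower, 25.4% of uncalled and 19.7% of all. The AP-1 site TGANTCA was in 8.8% of higher, 10.7% of lower, 5.4% of uncalled and 7.9% of all promoters. Its strict form TGACTCA was in 5.5%, 5.4%, 3.8% and 5.2%. For factors of the C/EBP family, TTGCNNCAA was in 3.3% of higher, 3.6% of lower, 1.6% of uncalled and 2.1% of all promoters. A looser form, TTNCNNAA, was in 40.1%, 49.1%, 32.4% and 40.7%. The site of KLF and Sp1 factors, CCNCNCCC, was in 65.9%, 63.4%, 66.6% and 49.1%. The MAF recognition letters TGCTGAC were in 4.9%, 5.4%, 3.8% and 4.6%. The sterol response letters TCACNCCAC were in 0.5%, 0.9%, 1.1% and 1.2%.

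Several programmes showed few or no calls. Over all 16260 genes, 2963 had an unadjusted p under 0.05 in edgeR's test, the share to set beside the counts below. Of 42 hypoxia and glycolysis genes, 0 passed in edgeR's test (median -0.17), with 6 at an unadjusted p under 0.05, 0 called by DESeq2, and 3 lower in limma voom. The most abundant were Aldoa (log2 fold change 0.22 ± 0.24), Pkm (-0.28 ± 0.25) and Ldha (-0.13 ± 0.22). Of 41 nuclear genes of oxidative phosphorylation, 0 passed in edgeR's test, DESeq2 or limma voom, with 2 at an unadjusted p under 0.05 and a median of -0.26. By contrast, 7 of 9 mitochondrially encoded transcripts rose (median 1.86). Of these mt-Nd1 measured 4528, 3489 and 3766 CPM in the macrophages and 637, 609 and 945 CPM in the monocytes (log2 fold change 2.51 ± 0.41 SE, adjusted p = 0.00407) and mt-Cytb 5656, 4459.6 and 4123 CPM in the macrophages and 758, 925 and 1389.6 CPM in the monocytes (log2 fold change 2.29 ± 0.40 SE, adjusted p = 0.00509), each stable. The mitochondrial count was 4 without macrophage A, monocyte A or monocyte B. The tested transcripts that did not pass, mt-Co3 and mt-Atp6, did not exceed 0.461 and 0.563 CPM in any of the 6 libraries. Of 13 listed, mt-Nd3, mt-Nd4l, mt-Co2 and mt-Atp8 were left out of the test by the low count filter. Why these transcripts had so few counts was not tested. MHC class II presentation had 1 lower of 19, the costimulatory ligand Cd86 (-1.08 ± 0.29), which with 1 library left out passed only without macrophage C, and the invariant chain Cd74 overlapped (adjusted p = 0.981). Cell cycle genes had 1 of 50 higher, the replication helicase subunit Mcm2 (2.07 ± 0.45), and 1 lower, Hmgb2 (-1.08 ± 0.26), and neither passed without macrophage B, monocyte A or monocyte C. Sterol and fatty acid synthesis had 2 of 26 higher, Sqle (2.48 ± 0.62) and Dhcr7 (2.26 ± 0.49), which act in cholesterol synthesis, with 6 without macrophage C and 0 without macrophage A or monocyte A. Iron and oxidant genes had 2 of 27 higher, the ferrireductase Steap3 (1.87 ± 0.40) and catalase, Cat (1.08 ± 0.28). Cat overlapped between the groups. The iron and oxidant count was 3 without macrophage C, 2 without monocyte B, 1 without macrophage A or monocyte C and 0 without macrophage B or monocyte A, and DESeq2 called 3 higher and limma voom 4.

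Among 37 myeloid transcription factors, Irf4 rose (1.87 ± 0.48) and Runx3 and Id3 fell. Runx3 measured 7.5, 14.6 and 51.3 CPM in the macrophages and 144, 99.6 and 128 CPM in the monocytes (log2 fold change -2.28 ± 0.48 SE, adjusted p = 0.0164). Macrophage C lay between the other macrophages and the monocytes, and 0 factors passed without macrophage A or B, while 2 rose and 7 fell without macrophage C. Of 29 immediate-early genes, which respond to stimulation and to tissue handling within minutes, 3 fell and 0 rose (median -0.75). The nuclear receptor Nr4a2 was at 20.3, 34.7 and 57.3 CPM in the macrophages and 250.2, 192 and 164 CPM in the monocytes (log2 fold change -2.38 ± 0.50 SE, adjusted p = 0.0172). The stress gene Ier3 was at 424, 603 and 1102 CPM in the macrophages and 1873, 1643 and 2001 CPM in the monocytes (log2 fold change -1.31 ± 0.28 SE, adjusted p = 0.0167). Fos was abundant and overlapped, at 5815, 5763 and 4180.0 CPM in the macrophages and 4883, 7571 and 5781 CPM in the monocytes (adjusted p = 0.801). The immediate-early count was 8 without macrophage C and 0 without macrophage A or B, and with all 6 libraries DESeq2 called 6 lower and limma voom 8.

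**Figure D4:**
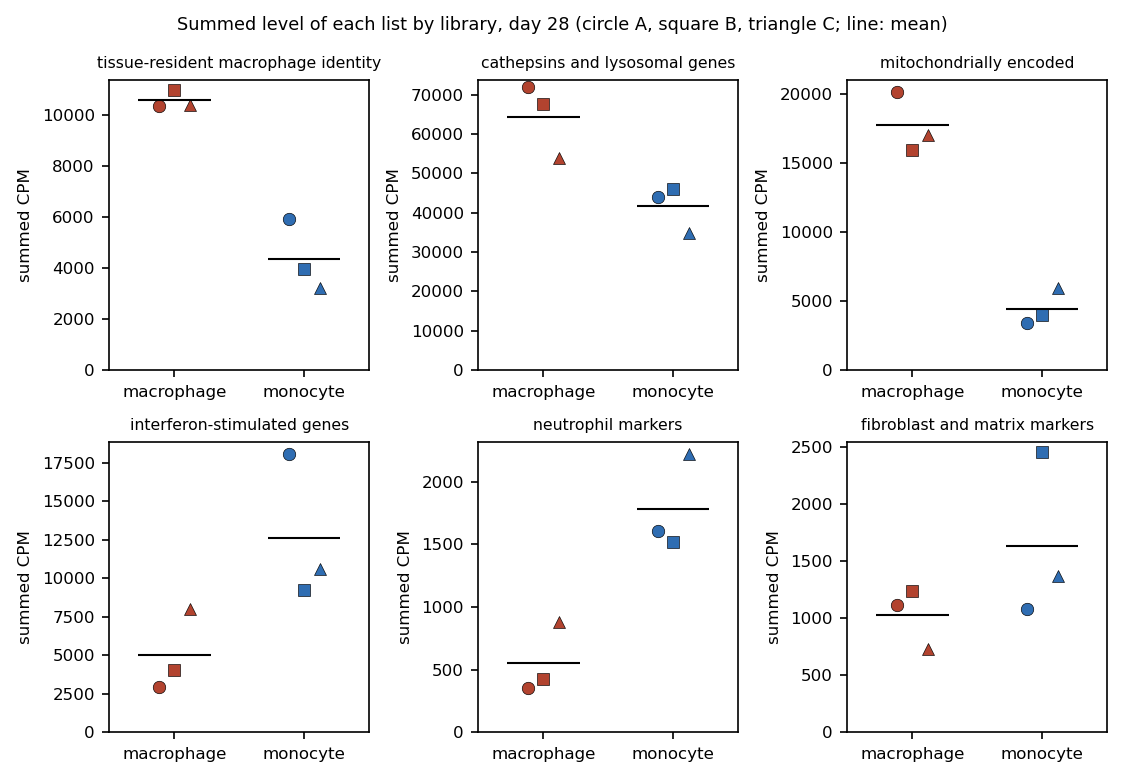
Summed CPM of 6 gene lists in each day 28 library, with circles, squares and triangles for libraries A, B and C and a line at the mean of each group. The groups do not overlap for the upper 3 lists, the interferon genes or the neutrophil markers, and overlap for the fibroblast and matrix markers, which without Gsn do not overlap.

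Markers of other cell types were mostly low. Of 24 fibroblast and matrix genes, 3 were lower in macrophages and 0 higher (median -1.82). Dcn, the collagen-binding proteoglycan decorin, measured 9.92, 11.1 and 3.46 CPM in the macrophages and 121, 159 and 28 CPM in the monocytes (log2 fold change -3.59 ± 0.92 SE, adjusted p = 0.0403). The microfibril protein Mfap5 was at 1.3, 0.851 and 1.04 CPM in the macrophages and 26.3, 21.8 and 7.07 CPM in the monocytes (log2 fold change -4.04 ± 0.68 SE, adjusted p = 0.00446), and Serpinf1 at 2.86, 0.745 and 1.18 CPM in the macrophages and 23.1, 23.1 and 7.33 CPM in the monocytes (log2 fold change -3.41 ± 0.71 SE, adjusted p = 0.0164). Mfap5 was stable, and Dcn did not pass without macrophage C (adjusted p = 0.0614). The count was 1 without macrophage B, and with all 6 libraries DESeq2 called 7 lower and limma voom 8. The collagen Col3a1 was at 11.5, 48 and 5.71 CPM in the macrophages and 86.1, 210.4 and 151 CPM in the monocytes, lower in each macrophage library (adjusted p = 0.166). Efemp1 and Cd248, named above for their size, are stromal genes of the same kind outside this list. The summed level of the list overlapped, at 1119, 1240.05 and 729 CPM in the macrophages and 1079.98, 2458 and 1374 CPM in the monocytes, and gelsolin, Gsn, which myeloid cells express, gave most of it. Without Gsn the sums were 78.1, 156 and 57.5 CPM in the macrophages and 489.66, 787 and 341 CPM in the monocytes, with no overlap. T and NK cell genes had 1 of 21 lower (Nkg7, which with 1 library left out passed only without monocyte C), B and plasma cell genes 1 of 11 higher (Cd22, also found on myeloid cells, and passing only without macrophage C or monocyte B), and 4 of 14 listed mast cell, basophil and eosinophil genes were at 0 in all 6 libraries, the IgE receptor chain Fcer1a among them. Cd3e did not exceed 1.02 CPM, nor Cd79a 0.217 CPM, in any of the 6. Other members of the T, NK, B and plasma cell lists were more abundant. Ighm was at 100, 63.7 and 113 CPM in the macrophages and 154, 180 and 147 CPM in the monocytes, lower in each macrophage library (adjusted p = 0.317). Sdc1 (41.6, 157 and 206 CPM in the macrophages and 90.4, 302 and 250 CPM in the monocytes) and Il7r (111, 94.9 and 144 CPM in the macrophages and 67.2, 65.8 and 110 CPM in the monocytes) overlapped. Hba-a1, a haemoglobin chain whose reads may be shared with its near-identical copies, was higher in each macrophage library without passing, at 20.1, 27 and 70 CPM in the macrophages and 9.83, 0.674 and 2.82 CPM in the monocytes (adjusted p = 0.274).

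The cell types were also compared at the other times. This contrast shares no libraries with day 28 but shares the fitted spread. At day 2, 266 genes were higher (1.64%) and 290 lower (1.78%), at day 14 869 (5.34%) and 654 (4.02%), and in untreated mice 1238 (7.61%) and 796 (4.9%). Of the 242 genes higher at day 28, 104 were also higher at day 14 (43%, which is 12% of the day 14 list), and 64 at day 2 (26.4% and 24.1%). Of the 167 lower ones, 109 were lower at day 14 (65.3%, and 16.7% of the day 14 list) and 53 at day 2 (31.7% and 18.3%). The opposite direction was called at day 14 for 5 of the 167 and 0 of the 242, and at day 2 for 0 of either. In untreated mice 106 of the 242 and 67 of the 167 had the same direction and 6 and 19 the opposite one.

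Lipa had log2 fold changes of 0.17 ± 0.37 SE in untreated mice, 1.37 ± 0.34 at day 2, 1.36 ± 0.33 at day 14 and 2.63 ± 0.35 at day 28. Its difference at day 28 exceeded that in untreated mice by 2.46 ± 0.51 (interaction, adjusted p = 0.00465), and not, by the test, that at day 14 (adjusted p = 0.197). In macrophages Lipa averaged 278 ± 101 CPM untreated and 856 ± 254 CPM at day 28 (SD, n = 2 and 3). In monocytes it averaged 246 ± 84.3 CPM and 144 ± 71.5 CPM (SD, n = 3 each). In CPM, macrophages thus averaged more and monocytes less at day 28 than without an implant. CPM leave out the normalization factors of the tests, 1.24 to 1.41 in untreated libraries and 0.916 to 1.04 at day 28. Dividing by these factors lowers the untreated levels relative to day 28 and so narrows the monocyte difference. These changes within a cell type were not tested. Mmp19 was 1.80 at day 28 against -0.44 ± 0.35 at day 14 (interaction 2.23 ± 0.49, adjusted p = 0.0357). It was 1 of 6 genes with a higher difference at day 28 than at day 14 (0.0369% of those tested).

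Against untreated mice the cell type difference was another at day 28 for 939 genes (5.77%), 362 with a higher value (2.23%) and 577 with a lower one (3.55%), and for 492 without macrophage B of the untreated mice. Resident macrophage genes had 22 of 32 with a lower difference at day 28 and 0 with a higher one. C1qa had a log2 fold change of 10.89 ± 0.47 in untreated mice and 1.83 ± 0.31 at day 28 (interaction -9.06 ± 0.51, adjusted p = 9.94e-10). It averaged 1.67 ± 0.215 CPM in untreated monocytes and 359 ± 155 CPM at day 28, against 3164 ± 259 CPM and 1222 ± 176 CPM in macrophages. Dab2 averaged 0.488 ± 0.396 CPM and 453 ± 171 CPM in untreated and day 28 monocytes (interaction -11.02 ± 0.72, adjusted p = 4.44e-09), and Stab1, a scavenger receptor, 1.3 ± 0.969 CPM and 109.5 ± 28.3 CPM (interaction -9.39 ± 0.70, adjusted p = 3.66e-08). Folr2 went from 12.02 ± 0.74 to 3.78 ± 0.52 (interaction adjusted p = 8.9e-07), and Retnla from 13.49 ± 1.37 to 6.59 ± 1.05 (adjusted p = 0.00272). Untreated monocytes held only 0.74 ± 0.521 CPM of Folr2 and 0.782 ± 0.153 CPM of Retnla, so these untreated fold changes rest on low monocyte levels. Retnla in macrophages averaged 9034 ± 3376 CPM untreated and 277 ± 148 CPM at day 28. Ccl8 had log2 fold changes of 12.70 ± 0.99 untreated, 8.31 ± 0.82 at day 2, 6.96 ± 0.77 at day 14 and 2.98 ± 0.64 at day 28, and the last 2 differed (interaction -3.98 ± 0.87, adjusted p = 0.0354).

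**Figure D5:**
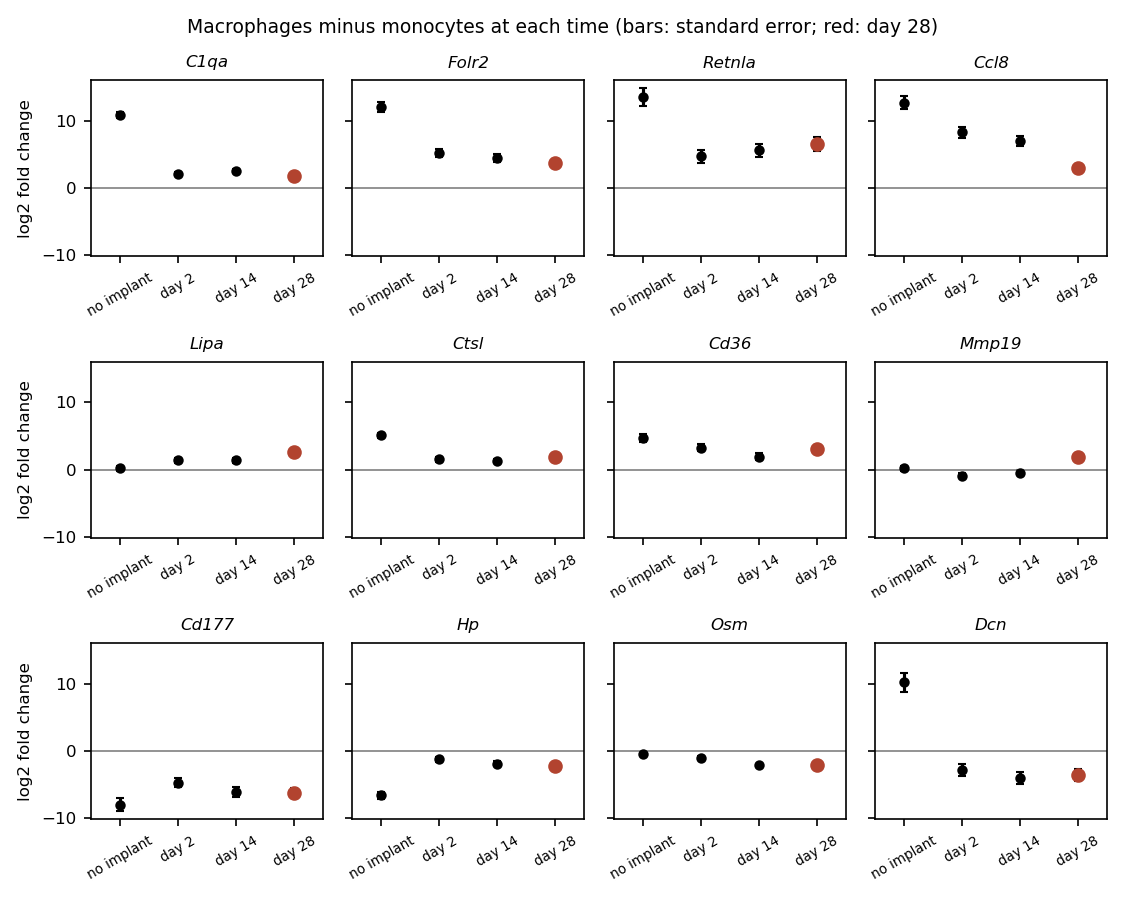
Log2 fold change of macrophages minus monocytes for 12 genes in untreated mice (no implant) and at days 2, 14 and 28, with bars for the standard error and day 28 in red. C1qa, Folr2, Retnla and Ccl8 sit highest without an implant, Lipa is near 0 there and 2.63 at day 28, and Dcn is positive without an implant and negative at the 3 implant times.

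Of 24 fibroblast and matrix genes, 14 had a lower difference at day 28 and 0 a higher one. Dcn was 46.8 ± 19 CPM in untreated macrophages and 0.0328 ± 0.0328 CPM in untreated monocytes, and 8.17 ± 4.13 CPM and 102 ± 67.2 CPM at day 28, so that the order of the cell types was the opposite one (interaction adjusted p = 3.29e-05). Genes of classical monocytes had 10 of 30 with a higher and 1 with a lower difference, and Hp went from -6.58 ± 0.55 to -2.17 ± 0.37 (adjusted p = 6.06e-05). Cd177, by contrast, had -7.98 ± 0.94 untreated and -6.28 ± 0.73 at day 28, and the test of that difference did not pass (adjusted p = 0.342). Interferon-stimulated genes had 6 of 50 with a lower difference and 0 with a higher one. Cxcl10 was -3.81 ± 0.76 at day 14 and -0.51 ± 0.68 at day 2, and neither test against day 28 passed (adjusted p = 0.766 and 0.325).

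Against day 14, 202 genes differed (1.24%), 196 with a lower and 6 with a higher difference at day 28. The smallest adjusted p belonged to Gpt2 (interaction -5.98 ± 1.00), Copz2 (-5.83 ± 0.98), Trim35 (-3.46 ± 0.59), Tmem70 (-4.88 ± 0.86), Ash2l (-4.00 ± 0.71) and Trim11 (-3.50 ± 0.63), each with an adjusted p of 0.029. Trim35 averaged 5.68 ± 0.494 CPM in monocytes at day 14 and 39.3 ± 20 CPM at day 28, and 44.9 ± 14.9 CPM and 23 ± 4.92 CPM in macrophages. Ash2l, a subunit of histone methyltransferase complexes, averaged 5.64 ± 1.43 CPM and 43.8 ± 15.8 CPM in monocytes. Monocytes thus averaged less at day 14 than at day 28 for both. The count of 202 was 0 without macrophage B of day 14, macrophage A or B of day 28 or monocyte B of day 28, and 814 without macrophage C of day 28. Against day 2, 0 genes passed (0%) in edgeR's test, with 2053 at an unadjusted p under 0.05, and 430 passed without macrophage C of day 28. DESeq2 called 313 and limma voom 518.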

How the data were processed

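Gene counts were deposited by the authors as 1 table of 47729 Ensembl genes in 23 libraries. Per the labels' protocols, RNA was amplified with SMART-Seq v4 and sequenced as single reads. The submitters' processing notes name bcl2fastq, STAR 2.4.1d, featureCounts of Subread 1.5.1 and the build GRCm38. Which annotation release and strand setting were used, and how reads matching several genes were counted, is not given in the sources used. Overlapping, antisense and near-identical genes are therefore uncertain. Symbols came from GENCODE M21 for 47310 genes, and the 419 without one held 0.095% of counts. Totals ran from 9303153 to 32994092.

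All libraries were fitted as 8 groups in edgeR 4.0.16 (R 4.3.3; filterByExpr, TMM, robust quasi-likelihood test, prior count 0.125), with Benjamini-Hochberg adjustment over 16260 genes and a threshold of 0.05. Tests of a difference between times are interactions in this fit. DESeq2 1.42.0 and limma voom 3.58.1 with quality weights were alternatives, beside another normalization, no filter, thinned counts, a replicate block, a fit of 6 libraries and each library left out. On simulated data for the day 28 comparison (16260 genes, 100 changed per size), edgeR recovered 1% of 2-fold and 28% of 4-fold changes, with 6.45% of its 31 calls false. DESeq2 recovered 6% and 45%, with 33.77% of 77 false, and limma voom 1% and 23%, with 7.69% of 26 false. The simulated counts were 1 draw from edgeR's own fitted means and dispersions, with no library set apart as macrophage C was. DESeq2 was given the 16260 filtered genes there, but 47729 entries in the real data. These rates therefore cannot rank the tools on the real libraries or give their error there. P-values and SEs rest on the spread between libraries within all 8 groups.

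The comparison, gene lists and motifs were chosen with earlier results of these data known. Named genes were the 12 largest changes each way among called genes with at least 10 CPM and no overlap, up to 4 called members per list and direction, its 3 most abundant members that did not pass, the gate genes, markers of other cells and the 6 smallest adjusted p in each comparison of times. Other called members, and the genes followed over time, were chosen after their values were seen, as were the list counts with libraries left out. Some called list members are not reported here. Intervals of count ratios cover counting error only. Promoters came from RefSeq (GRCm38.p6), with the first listed start taken for each gene symbol, so that other starts were not searched.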

Additional observations from a re-analysis of the deposited data

Results flagged for a closer look

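The cell type difference at day 28 was tested against that at the other times, and results that passed are collected here. Against day 14, 202 genes passed. Those with the smallest adjusted p (0.029) were Gpt2 (-5.98 on the log2 scale), Copz2 (-5.83), Trim35 (-3.46), Tmem70 (-4.88), Ash2l (-4.00) and Trim11 (-3.50), all with a lower difference at day 28. Gpt2, an alanine aminotransferase, averaged 14.2 ± 6.44 CPM in macrophages and 0.0679 ± 0.118 CPM in monocytes at day 14 and 11.8 ± 5.54 CPM and 4.02 ± 2.4 CPM at day 28 (SD, n = 3). Its fitted size at day 14 thus rests on very few monocyte counts.

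Against untreated mice 939 genes passed. The smallest adjusted p belonged to C1qa (-9.06 on the log2 scale, adjusted p = 9.94e-10), C1qc (-8.74, 4.44e-09), Dab2 (-11.02, 4.44e-09), C1qb (-8.13, 4.44e-09), the complement receptor C3ar1 (-6.18, 8.58e-09) and Stab1 (-9.39, 3.66e-08), all from edgeR. For C3ar1, monocytes averaged 6.61 ± 3.22 CPM untreated and 792 ± 6.46 CPM at day 28, and macrophages 895 ± 283 CPM (n = 2) and 1416 ± 106 CPM.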

How the results depend on the processing

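The 409 calls at day 28 were 1285 with no filter on low counts, 1229 with DESeq2, 1144 with limma voom, 1 with the 6 day 28 libraries fitted alone and 0 with these and a replicate block (1697 and 1469 genes at an unadjusted p under 0.05 in edgeR), and 69 to 1323 with 1 library left out. They were 422 with the normalization of DESeq2, 508 with thinned counts and 329 with a replicate block. Against day 2, the count of 0 was 677 with no filter, 313 with DESeq2 and 518 with limma voom, 0 with the replicate block, and 0 to 430 with 1 library left out. Against day 14, the 202 were 1149, 832 and 648 in the same order, 191 with the block and 0 to 814. These included 4 without monocyte B, 3 without monocyte C and 111 without macrophage C of day 14, and 123 without monocyte A of day 28. Against untreated mice, the 939 were 1602, 1505 and 1616, 807 with the block and 492 to 1060. Whether library letters mark shared animals or days is not stated in the labels. The deviations of same-letter macrophage and monocyte libraries at day 28 correlated at -0.08, 0.0049 and -0.049. Pairs of different letters ran from -0.091 to 0.15. With deviations from means of 3 libraries, these values cannot decide whether the samples are paired. The 91 named genes called at day 28 include the gate genes Ly6c1 and Ly6c2. Of the 91, 33 passed without macrophage A, 47 without macrophage B, 86 without macrophage C, and 45, 63 and 47 without monocytes A, B and C. With DESeq2 91 passed, with limma voom 85 and with the replicate block 72. All 91 kept their direction with any 1 library left out. With the replicate block, fallen interferon-stimulated genes were 1 in place of 4 (Cxcl10, Ifi205 and Ifi204 did not pass), chemokines 0 in place of 1, and fibroblast and matrix genes 5 in place of 3. The sums without Gsn and without Bst2, and the counts of list members with each library left out or with DESeq2, limma voom or the block, were chosen after seeing the data. The cause of these shifts was not tested.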
